A study of Mus musculus with 10 samples.

Results

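Aminoacyl-tRNA synthetases are the enzymes that attach each amino acid to its own transfer RNA. The genes examined here were 37 named genes of this family: 20 cytosolic enzymes or subunits, 15 mitochondrial enzymes whose symbols end in 2, and the complex scaffolds Aimp1 and Aimp2. Each gene was represented by the annotated transcript with the highest mean RNAseq count. Counts were found for 30 of the 37 genes (18 cytosolic, 12 mitochondrial), among 13188 gene symbols in the tables. Mars, Vars, Ears2, Fars2, Mars2, Aimp1 and Aimp2 were not analysed here. The cells were mixed neuron and glia cultures from the cortices of newborn (P0) FVB mouse pups of both sexes, grown for 7 days. Cultures 1 to 3 were left untreated, and cultures 4 and 5 were depolarized with 55 mM KCl for 3 h. The authors left out a further KCl replicate because its library was much smaller. All cultures received cycloheximide, which halts ribosomes on mRNA, shortly before lysis. Each lysate gave an RNAseq library and a ribosome footprinting (RF) library, so there were 10 libraries from 5 cultures. A culture held several cell types, so each value is a mean over them. Nothing in the labels gave separate litters or days, so p-values measure only the spread between these cultures.

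Cytosolic synthetases charge transfer RNAs for ribosomes on mRNAs of the nuclear genome, while the mitochondrial enzymes, encoded in the nucleus and imported, serve the small set of proteins made inside mitochondria. Most amino acids have a separate gene for each compartment. Gars and Kars each encode both forms, and mitochondria form glutaminyl-tRNA by an amidation route, so no mitochondrial partner of Qars exists. Several cytosolic enzymes (Dars, Eprs, Iars, Kars, Lars, Qars, Rars and Mars) assemble with scaffolds into a multi-synthetase complex. Many cytosolic synthetase genes are known targets of ATF4, a transcription factor of the amino acid and integrated stress responses, which binds with C/EBP partners to CARE elements. In people, dominant variants of Gars, Yars, Aars and Hars cause peripheral neuropathy, and loss of Rars2 causes pontocerebellar hypoplasia.

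The CARE core TGATGNAA was searched on both strands of RefSeq promoters, from 250 bases before to 50 bases after the start of transcription (GRCm38.p6). It was present in 5 of the 28 named genes with a promoter in that table: 5 of 12 cytosolic genes and 0 of 14 mitochondrial genes. Of all 32851 promoters 3.97% held it, and 4.51% of 27025 genes had at least 1 such promoter. A window of 30 bases around 1 match in each of the 5 genes is given because the match was found in cytosolic genes of this family alone, among those with a promoter in the table, and the choice of members did not use it. The windows are written along the gene's own strand with the match in capitals, and a match on the opposite strand reads TTNCATCA.
Aars, chr8:111033840-111033869, plus strand: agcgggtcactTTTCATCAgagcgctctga
Gars, chr6:55037960-55037989, plus strand: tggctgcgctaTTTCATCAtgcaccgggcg
Iars, chr13:49682126-49682155, plus strand: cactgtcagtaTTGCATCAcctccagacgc
Tars, chr15:11399655-11399684, minus strand: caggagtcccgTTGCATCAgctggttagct
Yars, chr4:129189895-129189924, plus strand: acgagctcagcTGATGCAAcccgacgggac
The matches shown lay close to the RefSeq start, from 30 bases before to 9 bases after it. They describe letters in these windows only.

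Start codon contexts were read from the GENCODE transcripts, since initiation is where a ribosome commits to a coding sequence. They are shown for the genes with the highest and lowest TE on RNAseq reads of all regions (Dars and Kars). Farsb, Rars2 and Vars2 are shown for the largest mRNA changes with KCl, and Farsa as the partner subunit of Farsb. Up to 12 bases before the ATG and 12 after it are shown, with the ATG in capitals.
Dars: tccagtgtcctgATGcccagcaccaac
Kars: gggtgttccgccATGttgatgcaagct
Farsa: ctgggagtagccATGgcggataatccc
Farsb: ccacgactcgccATGccgactgtcagc
Rars2: ggaaagggaggcATGgcgtgtggcttt
Vars2: caaacactcccgATGcctcatttgcct
An A or G stood 3 bases before the ATG in 24 of the 30 transcripts, and 18 of the 30 had both this purine and a G directly after the ATG. Dars and Vars2, printed above, were among those without the purine. None of 11 cytosolic and mitochondrial pairs for the same amino acid shared a run of 30 bases in the CDS. Shorter shared runs were not searched, and the authors kept some reads shorter than this, so reads common to a pair are not excluded. Translated and aligned, Hars and Hars2 were the closest pair (72.2% identical residues over 471 aligned positions), followed by Tars and Tars2 (57.8%) and Aars and Aars2 (47.3%).

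Across all libraries, RNAseq totals ran from 3056286 to 3629959 reads and RF totals from 1463654 to 7719915, with untreated culture 3 and KCl culture 4 the shallowest in RF. The depolarization marker Fos was at 31.5, 42.9 and 38.0 RNAseq CPM in untreated cultures and at 118 and 107 in KCl cultures. Markers of each cell type examined had counts, whereas the markers Glul, Tyrobp, Cd68, Dcx and Col1a2 had no entry among the counts. Summed RNAseq CPM of 9 astrocyte markers was 13735 to 14568 in untreated and 11452 to 11742 in KCl cultures, and that of 7 microglia markers was 238 to 249 and 196 to 224. The sum of 9 oligodendrocyte lineage markers was 1629 to 1746 and 1546 to 1548, also apart. Summed neuron markers overlapped between the groups (1635 to 2293 against 1722 to 1794), as did fibroblast and endothelial markers (703 to 853 against 669.9 to 750.4). In RF the astrocyte sum was 19304 to 19918 and 20682 to 21097, and the microglia sum 396 to 417 and 442 to 458, both higher in KCl cultures. Summed fibroblast and endothelial markers in RF were 1551 to 2148 and 982 to 1170, lower in KCl cultures, and neuron and oligodendrocyte sums overlapped. Not every marker followed its sum. In RF the astrocyte marker Sox9 was lower and the fibroblast marker Dcn higher by the edgeR test described below. Fewer cells of a type and less RNA per cell cannot be told apart in such cultures. The part of these shifts in the results below was not tested.

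The cytosolic enzymes were far more abundant than the mitochondrial enzymes, in mRNA and in ribosome footprints, before any treatment. Levels are given per length, as RPKM, which divides reads by transcript or CDS length and by library total. The median RNAseq level of the 18 cytosolic genes was 26.0 ± 2.02 RPKM (mean ± SD of 3 untreated cultures), against 3.79 ± 0.298 RPKM for the 12 mitochondrial genes and 21.7 RPKM for the 7262 transcripts with at least 10 RPKM in both assays in 2 or more cultures, a set that by its choice leaves out low genes. In each untreated culture the cytosolic median was 5.94, 7.96 and 6.79 times the mitochondrial median. RF levels on the CDS were 53.6 ± 1.77 and 7.77 ± 0.336 RPKM, which were 7.27, 6.83 and 6.61 times apart. Translation efficiency (TE, RF RPKM on the CDS divided by RNAseq RPKM) had medians of 2.35 ± 0.236 for cytosolic and 2.09 ± 0.321 for mitochondrial genes, and the 3 cultures gave ratios of 1.34, 0.899 and 1.20, on both sides of equality. For comparison, 59 mitochondrial ribosomal proteins, which work in the same organelle, had a median RNAseq level of 21.0 RPKM. A set of 50 genes with symbols of Eif or Eef and a number had 16.6 RPKM. This set, called translation factors below, was taken by symbol. Besides initiation and elongation factors it holds related genes such as the kinase gene Eef2k, the inhibitor gene Eif4ebp2 and Eef1e1.

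**Figure D1:**
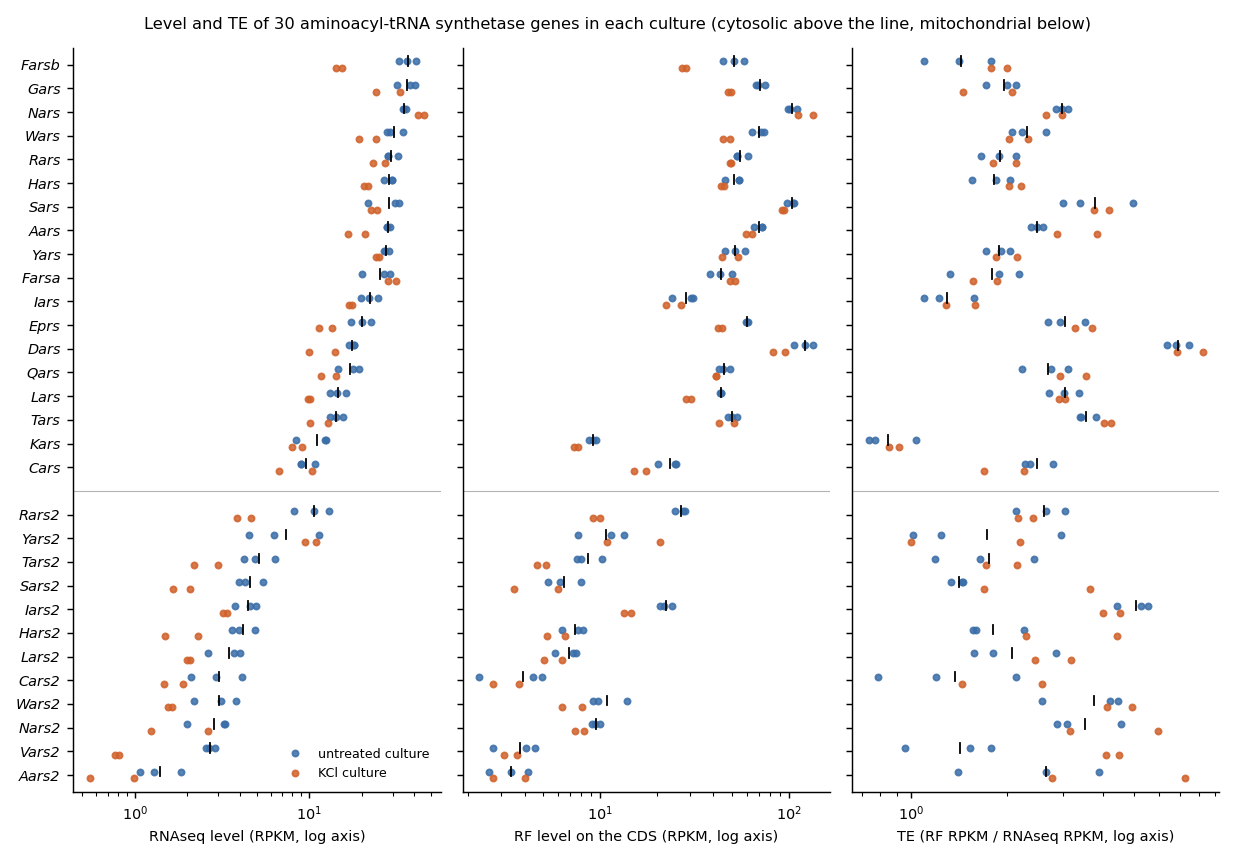
RNAseq level, RF level on the CDS and TE (log axes) of the 30 synthetase genes with counts, cytosolic above the line and mitochondrial below, each ordered by untreated RNAseq level. Points are single cultures (blue untreated, n = 3; orange KCl, n = 2) and black ticks are untreated means. Only Rars2 among the mitochondrial genes lay above the lowest cytosolic gene in RNAseq, whereas TE of both groups overlapped widely.

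Single genes formed a nearly continuous order within each compartment. Farsb, the beta subunit of phenylalanyl-tRNA synthetase, had the highest RNAseq level (36.8 ± 4.03 RPKM), close to Gars for glycine (36.5 ± 4.44 RPKM) and Nars for asparagine (34.99 ± 0.709 RPKM). Cars, for cysteine, was the lowest cytosolic gene at 9.55 ± 1.05 RPKM. Of the mitochondrial genes, Rars2 for arginine was highest at 10.6 ± 2.38 RPKM and Aars2 for alanine lowest at 1.40 ± 0.401 RPKM. Of 29 neighbouring pairs in this order, only 3 had untreated ranges that did not overlap: Nars above Wars, Tars above Kars, and Vars2 above Aars2. Most of the ranking is therefore within the spread of 3 cultures. In RF the order was led by Dars, for aspartate, at 122 ± 14.2 RPKM, ahead of Nars at 104 ± 6.16 and Sars for serine at 104 ± 4.60 RPKM. Aars2 was again lowest at 3.39 ± 0.794 RPKM, and 5 of 29 neighbouring pairs were apart.

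With RNAseq reads of all regions as the base, TE separated a few enzymes from the rest. Dars had TE of 6.37, 7.47 and 6.80 in the untreated cultures, the highest of all 30 genes and above every culture of the next gene, Iars2, the mitochondrial isoleucine enzyme, at 4.44, 5.26 and 5.55. This gap and that between Iars and Kars were the only 2 of 29 neighbouring pairs with ranges that did not overlap. Iars, the cytosolic isoleucine enzyme, had TE of 1.22, 1.57 and 1.10, so the mitochondrial paralog had the higher TE in all 3 cultures and the cytosolic gene the higher mRNA level (22.2 ± 2.60 against 4.43 ± 0.599 RPKM). Exons of Iars2 overlap those of Rab3gap2 on the opposite strand over 2034 bases, and RNAseq was not stranded, so reads of these genes cannot be told apart there. Kars, for lysine, was lowest with TE of 0.735, 0.772 and 1.04. Its value is uncertain: 173 of its 352 RNAseq reads (49.1%) fell in a region class of the files that carries no name, where the median synthetase gene had 5.09%, and none of its 345 footprints did. The study removed sequence shared between transcripts before mapping, and 3 Kars transcripts are listed. The order of TE also depends on the RNAseq reads used. On CDS reads per CDS length, Wars2 would stand above Dars and Kars above Iars in each untreated culture. Wars2 had only 4, 4 and 7 such reads there, and Kars 37, 36 and 16. Among robustly measured mitochondrial genes, Rars2 had TE of 3.04, 2.65 and 2.13 and Yars2, for tyrosine, 1.01, 2.95 and 1.24, and these ranges overlapped. Cars had 2.78, 2.27 and 2.37, near the cytosolic median.

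Footprints lay almost wholly on coding sequence, with a median of 99.2% per gene, but 3 mitochondrial enzymes carried a sizeable share on the 5′UTR. In the untreated cultures Nars2 (asparagine) had 20.7%, 12.9% and 17.4% of its 5′UTR and CDS footprints upstream of the start codon, Hars2 (histidine) 16.9%, 16.5% and 19.0%, and Vars2 (valine) 12.5%, 14.9% and 13.6%. No cytosolic gene exceeded 10% when untreated cultures were pooled, the highest being Wars, for tryptophan, with 6.55%, 6.85% and 6.94%. Among 8447 genes with at least 123 footprints, 28.3% exceeded 10%, so these 3 of 12 mitochondrial genes (25%) matched the general share and the cytosolic genes (0 of 18) lay below it. Per base, Tars2 and Vars2 had 4.56 and 1.54 times the footprint density of their CDS on the 5′UTR, and Nars2 1.01 times. Tars2 rested on 20 footprints over a 5′UTR of 33 bases. The 5′UTRs of Hars2, Nars2 and Vars2 were 385, 299 and 319 bases long and held 2, 3 and 4 upstream ATG triplets. Opposite-strand genes overlap exons of all 3 transcripts (195, 284 and 296 bases), and whether these contribute reads was not tested. For Hars2 the overlapping gene is Hars, its cytosolic partner. KCl values overlapped the untreated ones for Nars2 (17.4% and 26.7%) and Hars2 (5.88% and 21.9%), and lay below them for Vars2 (11.1% and 12.2%). The KCl values rested on few 5′UTR footprints: 4 and 12 for Nars2, 1 and 7 for Hars2, and 2 and 5 for Vars2.

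**Figure D2:**
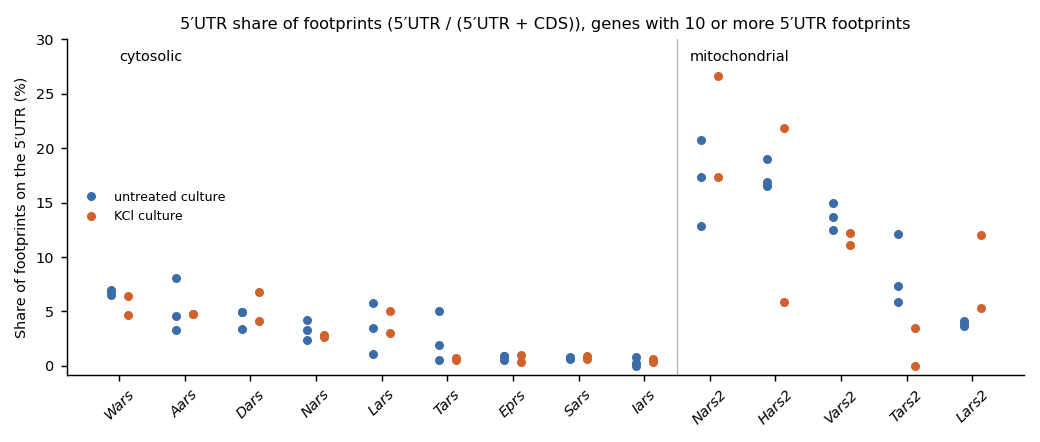
Share of footprints on the 5′UTR, out of those on 5′UTR and CDS, for the 14 synthetase genes with 10 or more 5′UTR footprints (blue untreated, orange KCl, 1 point per culture). Nars2, Hars2 and Vars2 exceed 10% in every untreated culture, and the cytosolic genes stay below 10%.

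KCl lowered the mRNA of several cytosolic synthetases and raised that of Nars. For KCl comparisons, counts were scaled between libraries by TMM and given as normalized CPM (reads relative to the scaled library size), and a gene was called at an adjusted p under 0.05 (edgeR quasi-likelihood test, Benjamini-Hochberg over those 7262 transcripts, here called robustly measured). This table held 17 of 18 cytosolic genes with counts (not Kars) and 2 of 12 mitochondrial genes (Rars2 and Yars2). In RNAseq 4 of 17 cytosolic genes fell (Farsb, Eprs, Aars and Lars), where 15.1% of all transcripts fell, and 1 rose (Nars), where 17.9% rose. Over all transcripts there were 1300 higher and 1095 lower calls, and 1098 and 1483 when library totals replaced TMM, which shifted the median of all transcripts by -0.08. The median cytosolic log2 fold change was -0.29, with 15 of 17 values negative, beside a median of -0.00 over all transcripts. Both KCl cultures lay below all untreated cultures for 9 of the 17 (background 27.2%) and above them for Farsa and Nars (27.6%).

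Phenylalanyl-tRNA synthetase, built of alpha (Farsa) and beta (Farsb) subunits in equal number, showed the largest cytosolic change, in Farsb. Farsb mRNA was 90.3, 80.7 and 99.8 CPM in untreated cultures and 37.0 and 39.9 CPM in KCl cultures. It fell by more than the spread within either group, with a log2 fold change of -1.23 ± 0.19 (SE) (edgeR adjusted p = 1.58e-06). Footprints on Farsb were 122, 137 and 109 CPM in untreated cultures and 72.0 and 70.1 CPM in KCl cultures, and the log2 fold change was -0.82 ± 0.14 (SE) (edgeR adjusted p = 3.09e-05). The groups overlapped in neither assay, and both calls held under all 13 alternative settings. Farsa went the other way without passing the test: its mRNA was 46.3, 67.1 and 60.9 CPM in untreated cultures and 68.2 and 76.6 CPM in KCl cultures, or 0.32 ± 0.19 (SE) in log2 (edgeR adjusted p = 0.194). Its footprints were 88.6, 78.2 and 105 CPM in untreated cultures and 114 and 109 CPM in KCl cultures (0.33 ± 0.14 (SE) in log2, edgeR adjusted p = 0.0556). As a ratio of RPKM, Farsa over Farsb mRNA was 0.548, 0.888 and 0.652 in untreated cultures and 1.97 and 2.05 in KCl cultures, and the RF ratio went from 0.842, 0.661 and 1.12 to 1.83 and 1.80. The pair was chosen after its values were seen, and with 3 cultures against 2 the exact permutation test can give no p below 0.1, which both ratios reached. The Farsa gene lies at chr8:84856989-84869257, plus strand, and Farsb at chr1:78425068-78488897, minus strand (GRCm38).

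**Figure D3:**
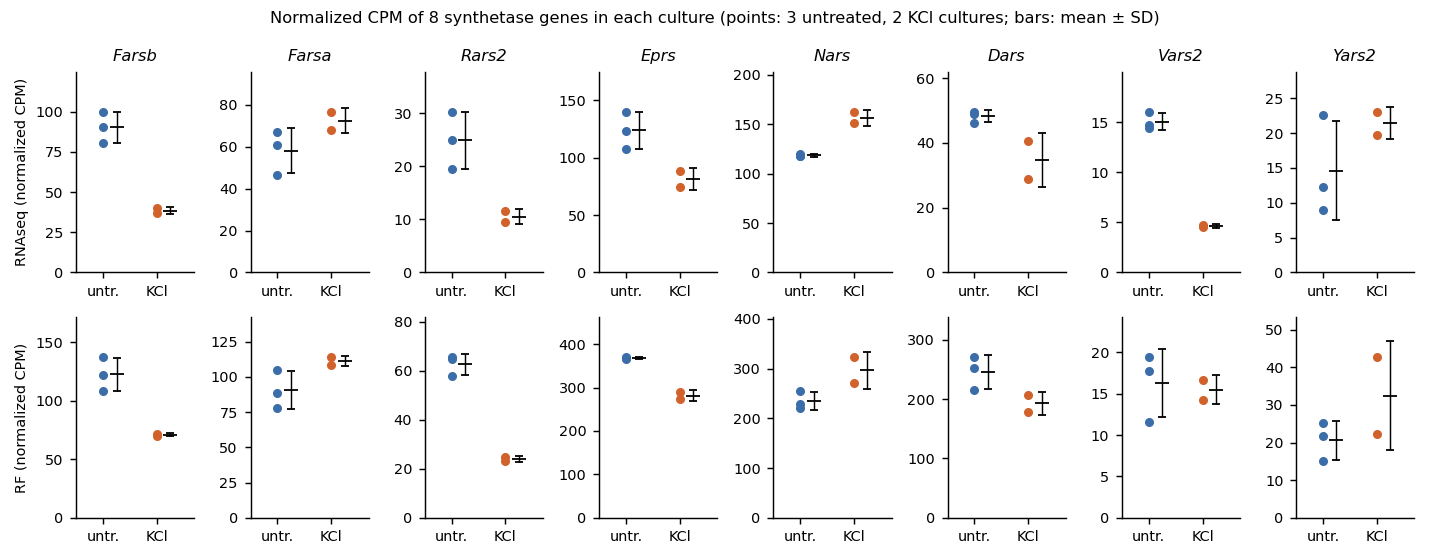
Normalized CPM of 8 synthetase genes in RNAseq (top) and RF (bottom), 1 point per culture (blue untreated, orange KCl) with mean ± SD beside each group. Farsb and Rars2 fall in both assays with no overlap, Nars rises in both, and Vars2 falls in RNAseq but not in RF.

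Among the remaining cytosolic calls in RNAseq, Eprs, the joined glutamate and proline enzyme, was 139.7, 108 and 123 CPM in untreated cultures and 74.4 and 88.3 CPM in KCl cultures (-0.60 ± 0.16 (SE) in log2, edgeR adjusted p = 0.00359). Aars, for alanine, was 203, 201 and 209 CPM in untreated cultures and 128 and 159 CPM in KCl cultures (-0.50 ± 0.14 (SE), edgeR adjusted p = 0.00571). In both genes every KCl culture was below every untreated culture, and both calls were lost without KCl culture 4 (edgeR adjusted p = 0.0883 for Eprs and 0.192 for Aars). Reads of Aars cannot be fully told apart from those of another gene: 1326 bases of its exons overlap Exosc6, an exosome subunit gene on the same strand, and 896 of its 2295 RNAseq reads and 155 of its 4365 footprints lay in the 3′UTR. On CDS reads alone the Aars change was -0.36 (edgeR adjusted p = 0.132). Lars, the leucine enzyme that also takes part in leucine sensing, was 72.4, 65.5 and 81.0 CPM in untreated cultures and 51.8 and 53.1 CPM in KCl cultures (-0.47 ± 0.18 (SE), edgeR adjusted p = 0.0422), a call kept in 6 of 13 settings and lost without untreated culture 3 (edgeR adjusted p = 0.157), KCl culture 4 (0.163) or KCl culture 5 (0.132). Nars was the only synthetase gene called higher in this assay, at 118, 117 and 120.2 CPM in untreated cultures and 162 and 151 CPM in KCl cultures (0.40 ± 0.14 (SE), edgeR adjusted p = 0.0277). Its groups did not overlap, and the call held in 7 of 13 settings, being lost without any of untreated cultures 2 and 3 and KCl cultures 4 and 5 (edgeR adjusted p = 0.0698, 0.058, 0.238 and 0.0887) and with library totals as the scaling (0.0774).

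Ribosome footprints gave a partly different set of calls, in which tryptophan, glycine and aspartate enzymes fell. In RF 6 of 17 cytosolic genes fell (Farsb, Eprs, Lars, Wars, Gars and Dars), where 20.1% of all transcripts fell, and Nars rose, where 20.8% rose. The median cytosolic log2 fold change was -0.09, beside -0.01 for all transcripts. With library totals the split of all calls went from 1511 higher and 1460 lower to 1187 and 1917, with the median of all transcripts at -0.11. Eprs footprints were 366, 369.5 and 368 CPM in untreated cultures and 273 and 289.9 CPM in KCl cultures (-0.38 ± 0.09 (SE) in log2, edgeR adjusted p = 0.00119), and Lars footprints were 204, 207 and 213 CPM in untreated cultures and 144 and 156 CPM in KCl cultures (-0.46 ± 0.11 (SE), edgeR adjusted p = 0.00122). Both genes had closely grouped untreated values with the KCl cultures clearly below. Wars was 141, 135 and 125 CPM in untreated cultures and 91.6 and 101 CPM in KCl cultures (-0.48 ± 0.13 (SE), edgeR adjusted p = 0.00316). Gars, which supplies both compartments, was 202, 197 and 225 CPM in untreated cultures and 150.3 and 157 CPM in KCl cultures (-0.42 ± 0.11 (SE), edgeR adjusted p = 0.00344). Dars, with the highest TE on RNAseq reads of all regions, was 215, 270.4 and 253 CPM in untreated cultures and 206 and 179 CPM in KCl cultures (-0.36 ± 0.11 (SE), edgeR adjusted p = 0.013). The groups were apart in all 5 of these genes. In RNAseq, Wars (-0.40 ± 0.17 (SE), edgeR adjusted p = 0.0562), Dars (-0.48 ± 0.21 (SE), edgeR adjusted p = 0.0741) and Gars (-0.28 ± 0.17 (SE), edgeR adjusted p = 0.201) did not pass. On the CDS alone Wars had 125, 135 and 120 RNAseq reads in untreated and 107 and 149 in KCl cultures, with overlapping groups. Across the settings its RNAseq change ran from -0.57 to 0.02 in log2. The calls of Eprs, Lars and Gars held under all 13 settings, while Wars was lost without KCl culture 4 (edgeR adjusted p = 0.0548) and Dars without KCl culture 5 (0.276). Nars footprints were 229, 221 and 255 CPM in untreated cultures and 323 and 270.5 CPM in KCl cultures (0.34 ± 0.10 (SE), edgeR adjusted p = 0.0086), a call lost without KCl culture 4 (edgeR adjusted p = 0.234) and with library totals (0.0554). Aars footprints, in contrast to its mRNA, were 279.8, 255 and 287 CPM in untreated cultures and 266 and 251 CPM in KCl cultures, and the groups overlapped. In RF 8 of the 17 had both KCl cultures below all untreated cultures (background 31.0%), and Farsa and Nars had both above (30.2%).

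The cytosolic genes not called in either assay were Cars, Farsa, Hars, Iars, Qars, Rars, Sars, Tars and Yars. Their RNAseq log2 fold changes ran from -0.35 (Hars, histidine) to 0.32 (Farsa), and their RF changes from -0.39 (Cars) to 0.33 (Farsa). Rars, the cytosolic partner of Rars2, was 86.0, 75.3 and 74.0 CPM in untreated cultures and 64.9 and 75.9 CPM in KCl cultures, with overlapping groups. Yars was 106, 99.5 and 97.7 CPM in untreated cultures and 93.3 and 97.5 CPM in KCl cultures, a difference of -0.08 ± 0.16 (SE) in log2. Iars was 139, 109 and 120.2 CPM in untreated cultures and 99.0 and 102 CPM in KCl cultures (-0.29 ± 0.16 (SE)). Cars was 82.9, 67.4 and 87.1 CPM in untreated cultures and 54.2 and 63.1 CPM in KCl cultures in footprints, -0.39 ± 0.16 (SE) in log2, just short of the threshold (edgeR adjusted p = 0.0534). Of these 9 genes, Yars and Iars lay wholly below the untreated cultures in RNAseq, as did Hars, although these 3 did not pass the test.

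Mitochondrial arginyl-tRNA synthetase, Rars2, fell in both assays. Its mRNA was 19.5, 24.96 and 30.3 CPM in untreated cultures and 11.5 and 9.53 CPM in KCl cultures, or -1.24 ± 0.30 (SE) in log2 (edgeR adjusted p = 0.00123), resting on 50, 64 and 74 reads in untreated cultures and 28 and 26 reads in KCl cultures. Footprints were 57.8, 65.0 and 65.5 CPM in untreated cultures and 24.9 and 23.2 CPM in KCl cultures, or -1.38 ± 0.19 (SE) in log2 (edgeR adjusted p = 8.34e-07). No KCl culture reached the lowest untreated culture in either assay, and both calls held under all 13 settings. Rars2 reached 10 RPKM in RNAseq in untreated cultures 2 and 3 alone (10.6 and 12.96 RPKM, against 4.63 and 3.83 RPKM in KCl cultures), so it entered the robustly measured table through the group in which it was higher. In the larger table described below, which has no RPKM threshold, its changes were -1.18 ± 0.30 (SE) in RNAseq (edgeR adjusted p = 0.00179) and -1.31 ± 0.19 (SE) in RF (edgeR adjusted p = 2.22e-07). Yars2 behaved differently. Its mRNA was 22.6, 8.97 and 12.3 CPM in untreated cultures and 23.0 and 19.8 CPM in KCl cultures and did not pass (0.54 ± 0.31 (SE), edgeR adjusted p = 0.18). Its footprints were 21.6, 25.2 and 15.0 CPM in untreated cultures and 22.2 and 42.7 CPM in KCl cultures (0.64 ± 0.24 (SE), edgeR adjusted p = 0.0353), so the groups overlapped. The RF call of Yars2 rests on KCl culture 5, without which the log2 fold change was 0.02 (edgeR adjusted p = 0.977), and it was also lost without untreated culture 1 (0.0865) or 3 (0.0839). Rars2 lies at chr4:34614957-34660167, plus strand and Yars2 at chr16:16302978-16309640, plus strand (GRCm38).

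The RPKM threshold left 10 of 12 mitochondrial genes untested, so all 30 genes were also read from the larger table kept by edgeR's filterByExpr function (17206 transcripts in RNAseq, 16376 in RF). There 4 of 12 mitochondrial genes fell in RNAseq (Vars2, Rars2, Hars2 and Sars2), where 11.2% of all transcripts fell, and none rose, where 13.4% rose. At an unadjusted p under 0.05 the edgeR counts were 6 lower and 1 higher (Yars2), and DESeq2 called 2 lower and 0 higher (4 and 0 at an unadjusted p under 0.05). Of the 12 log2 fold changes 11 were negative, and both KCl cultures lay below all untreated cultures for 10 of the 12, against 28.1% of all transcripts. Among the cytosolic genes 9 of 18 were below in this way, and 2 of 18 were above (background 21.1%). The median was -0.75 beside -0.23 for the 18 cytosolic genes and -0.01 for all transcripts. Here the cytosolic calls were 3 lower (Farsb, Eprs and Aars) and 1 higher (Nars). As a level, the mitochondrial median went from 3.79 ± 0.298 to 1.94 ± 0.116 RPKM and the cytosolic median from 25.97 ± 2.02 to 17.96 ± 1.56 RPKM. The cytosolic over mitochondrial ratio was 5.94, 7.96 and 6.79 in untreated cultures and 9.07 and 9.42 in KCl cultures, and no test was made over the members. Summed markers of astrocytes, microglia and the oligodendrocyte lineage were also lower in KCl cultures in RNAseq, as given above. In RF the astrocyte and microglia sums were higher.

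Vars2, for valine, had the largest mRNA change among the 30 genes examined: 37, 41 and 36 reads in untreated cultures and 11 and 13 reads in KCl cultures, or 14.4, 16.0 and 14.7 CPM in untreated cultures and 4.52 and 4.76 CPM in KCl cultures. The log2 fold change was -1.62 ± 0.40 (SE) (edgeR adjusted p = 0.00098), and the call held in all 10 settings run on that table. Its footprints were 19.4, 11.6 and 17.8 CPM in untreated cultures and 14.2 and 16.7 CPM in KCl cultures and showed no call (0.05 ± 0.28 (SE), edgeR adjusted p = 0.907). Hars2 was 16.7, 15.2 and 20.4 CPM in untreated cultures and 6.58 and 10.3 CPM in KCl cultures (-0.98 ± 0.34 (SE), edgeR adjusted p = 0.025). Sars2, for serine, was 10.1, 9.36 and 12.7 CPM in untreated cultures and 4.11 and 5.13 CPM in KCl cultures (-1.14 ± 0.44 (SE), edgeR adjusted p = 0.0444). Both had KCl cultures below all untreated cultures, on at most 50 reads per library. The Hars2 call was lost without untreated culture 3 (edgeR adjusted p = 0.113), without KCl culture 4 (0.301), on CDS reads (0.729) and with DESeq2 (0.086). The Sars2 call was lost without untreated culture 3 (edgeR adjusted p = 0.141), KCl culture 4 (0.256) or KCl culture 5 (0.132), on CDS reads (0.599) and with DESeq2 (0.122).

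The other mitochondrial enzymes did not pass in RNAseq. Culture values of some of their partners in the cytosol are given above. Iars2 was 34.2, 31.6 and 25.8 CPM in untreated cultures and 24.7 and 23.5 CPM in KCl cultures (-0.28 ± 0.25 (SE) in log2). Lars2, for leucine, was 19.8, 12.9 and 17.99 CPM in untreated cultures and 10.7 and 10.3 CPM in KCl cultures (-0.63 ± 0.33 (SE)), and Wars2, for tryptophan, was 21.4, 12.1 and 17.2 CPM in untreated cultures and 9.04 and 9.53 CPM in KCl cultures (-0.80 ± 0.34 (SE)). In all 3 genes the KCl cultures were the lowest on reads of all regions. On CDS reads of RNAseq the groups overlapped for Lars2 (28, 19 and 16 reads in untreated, 17 and 21 in KCl cultures). They also overlapped for Iars2 (73, 67 and 41 against 50 and 53 reads). Wars2 had only 4, 4 and 7 against 1 and 4 such reads. Tars2, for threonine, was 17.5, 13.3 and 11.4 CPM in untreated cultures and 8.63 and 6.23 CPM in KCl cultures (-0.86 ± 0.37 (SE)). Nars2 was 15.6, 15.6 and 9.40 CPM in untreated cultures and 13.2 and 6.23 CPM in KCl cultures (-0.44 ± 0.36 (SE)), opposite in sign to Nars but with overlapping groups. Cars2 was 5.06, 7.02 and 9.81 CPM in untreated cultures and 3.70 and 4.76 CPM in KCl cultures (-0.71 ± 0.49 (SE)), and Aars2 was 5.45, 7.80 and 4.50 CPM in untreated cultures and 2.47 and 4.40 CPM in KCl cultures (-0.71 ± 0.54 (SE)), the sparsest gene with 63 RNAseq reads in all 5 cultures. In footprints 2 of 12 mitochondrial genes fell (Rars2 and Iars2), where 15.3% of all transcripts fell, and 1 rose (Yars2), where 17.2% rose, with a median of -0.15 beside -0.05 for the cytosolic genes. Both KCl cultures were below all untreated cultures in RF for 5 of 12 mitochondrial genes (Iars2, Nars2, Rars2, Tars2 and Wars2) and 9 of 18 cytosolic genes (background 32.2%), and above them for 2 cytosolic genes (22.8%). Iars2 footprints were 88.8, 97.5 and 87.1 CPM in untreated cultures and 58.7 and 64.0 CPM in KCl cultures (-0.50 ± 0.15 (SE), edgeR adjusted p = 0.00818). That call was lost without KCl culture 4 (edgeR adjusted p = 0.0942) or KCl culture 5 (0.0778). Farsa was called higher in RF in this table (0.41 ± 0.14 (SE), edgeR adjusted p = 0.0184), and lost without KCl culture 4 (edgeR adjusted p = 0.134) or KCl culture 5 (0.121).

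**Figure D4:**
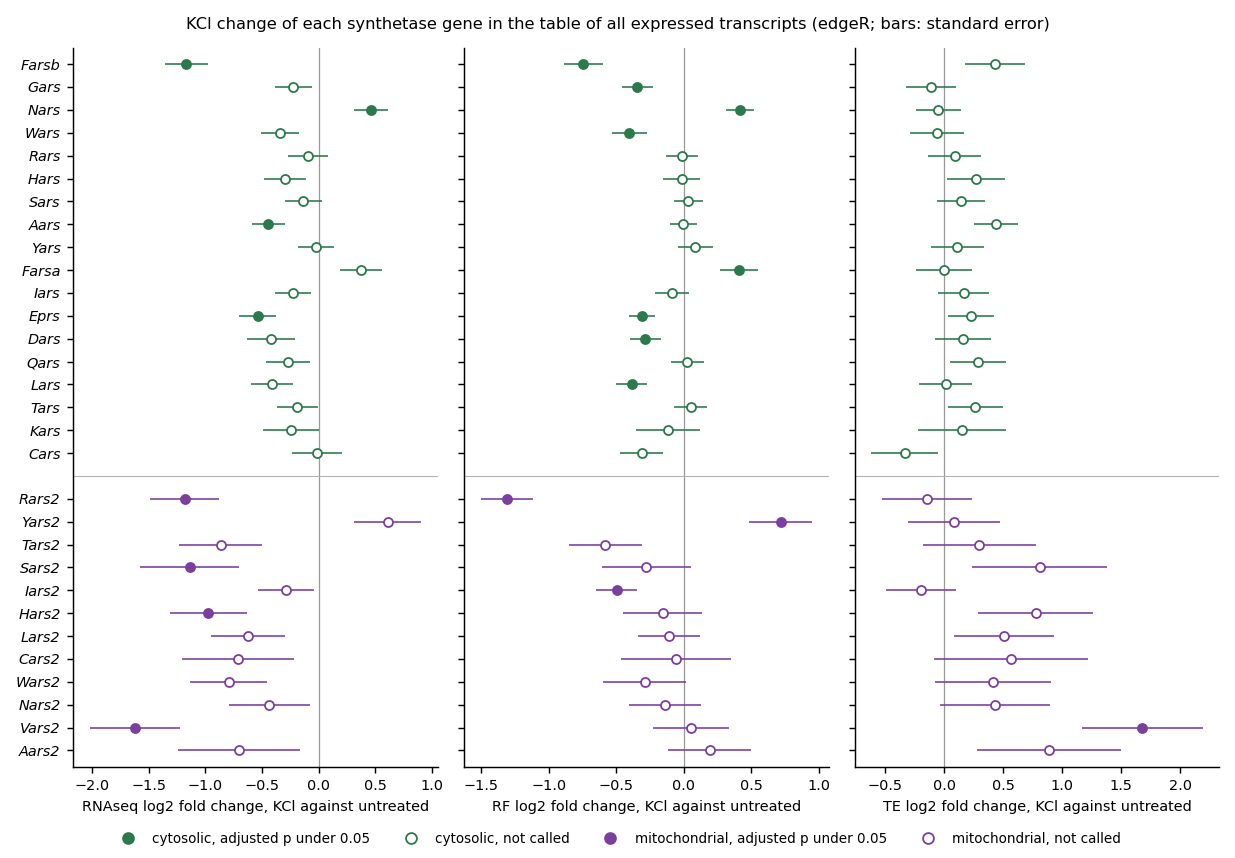
KCl log2 fold change of RNAseq, RF and TE for the 30 synthetase genes in the larger table, with standard errors (filled points, edgeR adjusted p under 0.05; green cytosolic, purple mitochondrial). In RNAseq 11 of 12 mitochondrial and 16 of 18 cytosolic values are negative, and the mitochondrial median is -0.75.

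Changes in TE rarely passed the test. In the robustly measured table edgeR called 0 of 19 synthetase genes, where 1.53% of all transcripts rose and 4.27% fell. At an unadjusted p under 0.05 there was 1 (Aars, higher), and DESeq2 also called 0. The median TE change was 0.12 in log2 over the 17 cytosolic genes, beside 0.01 for all transcripts. Farsb TE was 1.42, 1.77 and 1.10 in untreated and 2.00 and 1.78 in KCl cultures (0.42 ± 0.25 (SE) in log2, edgeR adjusted p = 0.399), and Dars TE was 6.37, 7.47 and 6.80 in untreated and 6.83 and 8.22 in KCl cultures. With TE taken from normalized CPM, both KCl cultures were above all untreated cultures for 4 of the 17 (background 15.7%). These were Aars, Farsb, Hars and Tars, and none passed the test. Both were below for 0 of the 17 (background 18.3%). For Farsb the nearest cultures were close, at 1.77 and 1.78, and for Dars the groups overlapped. Of the larger set, 1 of 12 mitochondrial genes was called, Vars2, where 0.646% of all transcripts rose and 1.7% fell. Its TE was 1.78, 0.953 and 1.53 in untreated and 4.07 and 4.48 in KCl cultures (1.68 ± 0.51 (SE) in log2, edgeR adjusted p = 0.0479). The call was lost in 7 of the 10 settings that gave a p, among them those without untreated culture 2 (edgeR adjusted p = 0.177), untreated culture 3 (0.0713), KCl culture 4 (0.249) or KCl culture 5 (0.588). Mitochondrial TE changes were positive in 10 of 12 genes, with a median of 0.47 beside 0.15 for the cytosolic genes. Both KCl cultures lay above all untreated ones for Hars2, Sars2 and Vars2 (3 of 12, background 13.4%). The median mitochondrial TE was 2.09 ± 0.321 in untreated and 2.99 ± 0.571 in KCl cultures, from 3.39 in culture 4 and 2.59 in culture 5. The cytosolic median TE was 2.35 ± 0.236 and 2.24 ± 0.084. The untreated mitochondrial median also depends on the RNAseq reads used, as given at the end.

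**Figure D5:**
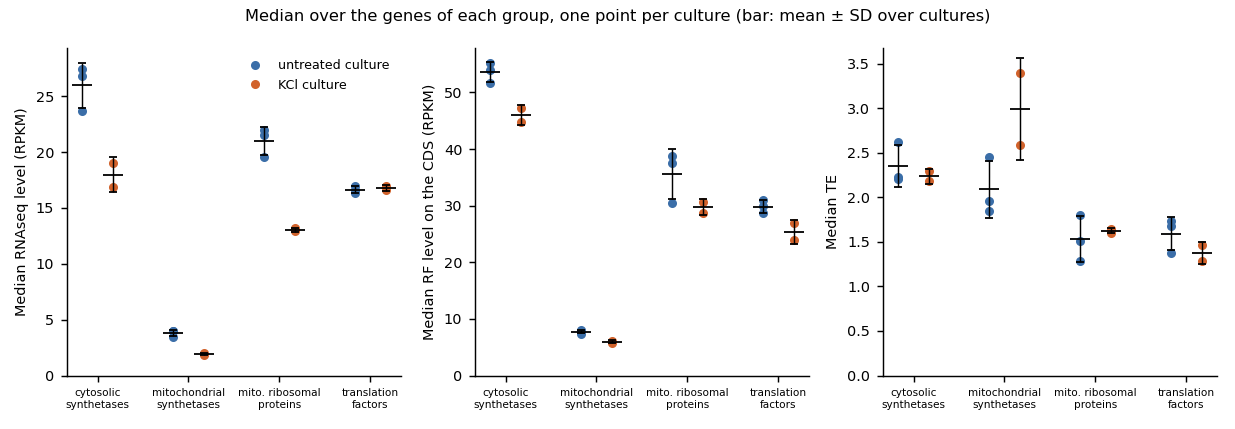
Median RNAseq level, RF level and TE over the genes of each group, 1 point per culture with mean ± SD (blue untreated, orange KCl). The mitochondrial synthetase median in RNAseq goes from 3.79 to 1.94 RPKM and the cytosolic median from 25.97 to 17.96 RPKM. Translation factors, a set taken by Eif and Eef symbols that includes related genes, stay at 16.6 and 16.8 RPKM.

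Counts by subgroup are small and are given beside the shares over all transcripts (15.1% lower and 17.9% higher in RNAseq, 20.1% and 20.8% in RF). Of the 6 robustly measured enzymes of the multi-synthetase complex, 2 fell in RNAseq (Eprs and Lars) with a median log2 fold change of -0.40, all 6 values being negative. Of the 11 enzymes outside it, 2 fell (Aars and Farsb) and Nars rose, with a median of -0.25. In RF the complex members had 3 lower calls and a median of -0.26, and the others 3 lower, 1 higher and -0.08. Before treatment the complex members had a median RNAseq level of 17.96 ± 1.26 RPKM and TE of 2.55 ± 0.284, against 28.8 ± 0.937 RPKM and 2.32 ± 0.243 for the others. Of 11 enzymes listed as ATF4 targets 3 fell and 1 rose in RNAseq (median -0.28), and of 6 not listed 1 fell (median -0.34). The counts outside the complex and off the ATF4 list are near the share over all transcripts in RNAseq. Of the 5 genes with a printed CARE match, Aars fell in RNAseq and Gars in RF, and the other 3 were called in neither assay. Differences between these subgroups were not tested.

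ATF4 itself and several of its targets outside the synthetase family rose strongly in the same cultures. Of 15 such genes robustly measured, 6 rose and 2 fell in RNAseq (median 0.29), where 17.9% and 15.1% of all transcripts did, so the falls were at the background share. The rises were led by Atf4 (2.21 in log2), Cebpb (1.88), which encodes a C/EBP partner, and the stress factor Atf3 (1.79). Ddit4, an inhibitor of mTORC1 signalling (-1.08), and Slc7a5, the light chain of a large neutral amino acid transporter (-0.41), fell. In RF 8 rose and 2 fell (median 0.63), beside 20.8% and 20.1% of all transcripts. Ddit3 rose most in RF (2.56) and was the only 1 of the 15 called in TE (2.70). The cytosolic synthetases listed as ATF4 targets had an RF median of -0.16, with 4 of 11 lower and 1 higher.

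Other genes of tRNA charging and tRNA processing were mostly too low for the RPKM threshold. Among the 17206 transcripts of the larger set, 6 of 20 fell in RNAseq (median -0.68), where 11.2% of all transcripts fell, and 7 of 19 fell in RF (median -0.47), where 15.3% fell. The largest falls in RNAseq were Pars2, the mitochondrial proline enzyme (-2.96 in log2), Qrsl1, a subunit of the mitochondrial amidotransferase that makes glutaminyl-tRNA (-1.56), and Elac2, which trims the 3′ ends of tRNA precursors (-1.06). In RF they were Pars2 (-2.47), the peptidyl-tRNA hydrolase Ptrh2 (-1.20) and Trmu, which modifies mitochondrial tRNAs (-1.17). Mitochondrial ribosomal proteins had 15 of 38 lower in the robustly measured RNAseq table (median -0.41), where 15.1% of all transcripts were lower, and 9 lower and 3 higher in RF (median -0.11), where 20.1% and 20.8% were. The translation factor set, taken by symbol and including related genes, had 6 of 28 higher in RNAseq (median 0.07), near the 17.9% of all transcripts. The cytosolic synthetases had an RNAseq median of -0.29 among robustly measured transcripts. In the larger set the RNAseq medians were -0.23 for cytosolic and -0.75 for mitochondrial synthetases. Differences between lists were not tested.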

How the data were processed

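RNAseq and RF libraries were made from the same 5 lysates. The deposited values are raw read counts per transcript region. The authors trimmed reads with Trimmomatic 0.32, removed rRNA with STAR 2.3.1z8, mapped with Bowtie2 2.2.2 to mm10 transcripts (Ensembl) from which repeated sequence had been removed, and counted with BEDTools 2.20.1, leaving out positions near start and stop codons. RNAseq was not stranded. Region letters were read as 5′UTR, CDS and 3′UTR from annotated lengths, and 1 class stayed unnamed. RNAseq used all regions and RF the CDS. Here counts were fitted with edgeR 4.0.16 (robust quasi-likelihood, TMM within each assay) in R 4.3.3, on transcripts with RPKM of at least 10 in both assays in 2 or more cultures. TE change was the assay by treatment interaction, with a replicate block for culture, since each lysate gave both libraries. Deviations of the 2 libraries of a culture correlated at -0.0731 to 0.0629. Of 22534 transcripts, 22177 (98.4%) matched an annotated gene (GRCm38). Alternatives were DESeq2 1.42.0, other scalings and filters, and leaving out each culture. Fits were tested on simulated data. Genes with values in every culture were the 6 smallest adjusted p per assay, the highest and lowest by RNAseq and TE, and some partners for the same amino acid. From other lists, the 3 largest called rises and falls were named. Members and lists were chosen with earlier results of these data known. A further promoter window is not reported here.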

Additional observations from a re-analysis of the deposited data

Results flagged for a closer look

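Vars2 was the only synthetase gene whose KCl effect passed the test of a difference between the assays. Its log2 fold change in RF exceeded that in RNAseq by 1.68 in the larger table (interaction of assay and treatment, edgeR adjusted p = 0.0479). Its RNAseq counts were 37, 41 and 36 reads in untreated cultures and 11 and 13 reads in KCl cultures, and the RF values rested on as few as 16 reads. The call held without untreated culture 1 (edgeR adjusted p = 0.0258) and was lost without any of the other 4 cultures (0.0713 to 0.588). DESeq2 gave no adjusted p for this gene.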

How the results depend on the processing

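No called change turned its direction in any alternative. Synthetase genes called higher in RNAseq (1) numbered 0 with library totals, 0 on CDS reads and 0 to 2 when a culture was left out, and those called lower (5) numbered 3 on CDS reads and 3 to 7 when a culture was left out. In RF the higher calls (2) numbered 1 with DESeq2, 0 with library totals, 1 in a single fit of all 10 libraries and 1 to 2 when a culture was left out. The lower calls (7) numbered 6 to 8. TE had 1 call with the filterByExpr table in place of 0. Without the replicate block TE called 0 synthetase genes, and 420 in place of 421 transcripts in all. In the larger table the pairing gave 425 calls and its absence 379, with Vars2 called in both (edgeR adjusted p = 0.0479 and 0.047). DESeq2 called 182 transcripts in TE. The cause of these differences was not tested. Untreated cytosolic medians were 22.8 RPKM on CDS reads of RNAseq in place of 26.0, and 51.6 RPKM in RF with TMM library sizes in place of 53.6. Mitochondrial medians were 2.78 RPKM in place of 3.79, and TE 2.86 in place of 2.09, on CDS reads of RNAseq. The settings applied within the larger table were chosen after seeing the data, and there the mitochondrial RNAseq median ranged from -0.89 to -0.61. Depth limits the 10 low mitochondrial genes most, with a lowest RNAseq count of 6 reads (Aars2). In fits without a KCl culture the lone KCl culture is assumed to vary like the others.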
